A study of Arabidopsis thaliana with 24 samples.

Results

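RNA levels are described here for 10 genes that make, copy or protect small RNAs in Arabidopsis thaliana, taken from 33243 genes counted in the series. They were found by gene ID in both count tables: the Dicer-like genes DCL1 (AT1G01040), DCL2 (AT3G03300), DCL3 (AT3G43920) and DCL4 (AT5G20320), the RNA-dependent RNA polymerase genes RDR1 (AT1G14790), RDR2 (AT4G11130) and RDR6 (AT3G49500), and SGS3 (AT5G23570), HEN1 (AT4G20910) and HYL1 (AT1G09700). Total RNA was measured by sequencing 24 libraries, 3 for each of 4 genotypes in mature dry seeds and in closed flower buds. The urt1-1 plants carry the T-DNA insertion SALK_087647C in URT1, the gene of an enzyme that adds uridines to mRNA ends. The heso1-4 plants carry the insertion GK-369H06-017072 in HESO1, the gene of an enzyme that adds uridines to small RNAs that lack the methyl group placed by HEN1. The heso1-4 urt1-1 plants carry both insertions, and the wild type (WT) is the Columbia accession Col-0, the background of all groups. Seeds were taken 8 weeks and flower buds 2 weeks after flowering began, each replicate from at least 5 plants grown in a greenhouse under long days. The extraction method was not the same for seeds as for flowers, and its effect cannot be told apart from that of tissue. Replicates are called biological by the labels.

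In plants, a Dicer cuts double-stranded RNA into small RNAs, and RNA-dependent RNA polymerases supply much of that double-stranded RNA by copying single-stranded transcripts. DCL1 with its partner HYL1 makes microRNAs, RDR2 and DCL3 make the small RNAs that direct DNA methylation, and RDR6, SGS3 and DCL4 make secondary and trans-acting small RNAs. HEN1 then methylates the ends of the small RNAs, which protects them from uridylation by HESO1.

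DCL1 is itself a target of this machinery, and the sites concerned lie in the RNA that was counted here. The gene spans chr1:23121-31227 on the plus strand of TAIR10. Its transcript pairs with miR162a, and miR838 is cut from one of its introns. Both mature miRNAs and the paired stretch of the DCL1 mRNA were read from the RefSeq genome (TAIR10.1). In the miRNAs the seed (bases 2 to 8) is in capitals. In the mRNA site the bases paired with miR162a-3p are in capitals, and the 1 base that bulges out is in lower case.
miR162a-3p: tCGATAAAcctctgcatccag
DCL1 site for miR162a-3p: CTGGATGCAGAGGTaTTATCGA
miR838: tTTTCTTCtacttcttgcaca
All 21 bases of miR162a-3p, encoded at chr5:2634936-2634956 on the minus strand, pair with this stretch of 22 bases once 1 unpaired base is allowed. The stretch joins exon 12 (chr1:27522-27533) to exon 13 (chr1:27618-27627), so it exists only in spliced RNA. No other place in the DCL1 transcript of 6276 bases paired at more than 15 bases under the same search. miR838 lies at chr1:28635-28655 in intron 14.

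The 250 bases upstream of a gene's annotated start were read as well, on the gene's own strand, for a gene with a very large seed to flower difference (RDR1), a Dicer with a large one (DCL3) and a Dicer with none that passed the test on the TMM scale explained below (DCL4). They were searched on both strands for ACGTG, the core of the abscisic acid response element, and CATGCA, the core of the RY element of seed genes. The motifs do not overlap each other, and matches are in capitals.
RDR1 upstream, chr1:5098271-5098520, minus strand: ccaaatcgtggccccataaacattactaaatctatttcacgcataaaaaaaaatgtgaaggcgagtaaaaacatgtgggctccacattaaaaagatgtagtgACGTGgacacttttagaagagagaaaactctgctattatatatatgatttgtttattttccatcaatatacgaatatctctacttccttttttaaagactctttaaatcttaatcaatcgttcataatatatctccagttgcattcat
DCL3 upstream, chr3:15753137-15753386, plus strand: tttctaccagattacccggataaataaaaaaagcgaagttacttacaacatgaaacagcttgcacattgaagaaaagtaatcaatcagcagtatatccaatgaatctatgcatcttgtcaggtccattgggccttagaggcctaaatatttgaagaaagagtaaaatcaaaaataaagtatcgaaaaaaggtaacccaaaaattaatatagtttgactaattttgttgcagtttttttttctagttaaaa
DCL4 upstream, chr5:6869308-6869557, minus strand: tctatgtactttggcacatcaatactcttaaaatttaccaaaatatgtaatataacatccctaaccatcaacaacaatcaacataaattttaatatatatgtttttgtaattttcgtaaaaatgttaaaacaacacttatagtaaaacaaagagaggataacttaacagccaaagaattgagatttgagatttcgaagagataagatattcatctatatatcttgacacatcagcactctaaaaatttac
ACGTG occurred once in the RDR1 window and in neither of the others, and CATGCA in none of the 3. Of the 7 members whose window touches no other gene, 2 (RDR1 and HEN1) held ACGTG and 0 held CATGCA. The windows of DCL2, RDR2 and RDR6 touch another gene, and of these that of RDR6 held ACGTG. Of the windows of all 27443 protein-coding genes, whether or not they touch another gene, 22.9% held ACGTG and 8.4% held CATGCA.

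The deposited counts summed to between 19304121 and 38853305 per seed library and between 23787015 and 39797391 per flower library. The 10 genes together had 2461 to 6279 counts per seed library and 8842 to 16492 per flower library. Markers fitted the tissue labels: 6 dry seed genes summed to 63529 to 124763 CPM (read counts relative to library size, scaled by TMM, which matches the bulk of genes between libraries) in seeds and 3.49 to 7.75 CPM in flowers. The 5 flower bud genes summed to 0.706 to 4.10 CPM in seeds, where 3 of them stayed under 1 CPM in every library, and to 309 to 539 CPM in flowers. URT1 was at 3.18 to 3.67 CPM in urt1-1 seeds and 4.59 to 5.06 CPM in heso1-4 urt1-1 seeds, against 138 to 147 CPM in WT seeds. HESO1 went against its label: it was at 234 to 249 CPM in seeds labelled heso1-4 and 62.3 to 69.6 CPM in those labelled heso1-4 urt1-1, against 0.508 to 0.776 CPM in WT seeds. In flowers HESO1 was at 567 to 640 CPM in libraries labelled heso1-4 and 34.6 to 63.2 CPM in those labelled heso1-4 urt1-1, against 10.1 to 10.8 CPM in WT. Directions drawn below from libraries labelled heso1-4 rest on that label, and a count over the whole gene does not show whether the RNA is intact.

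**Figure D1:**
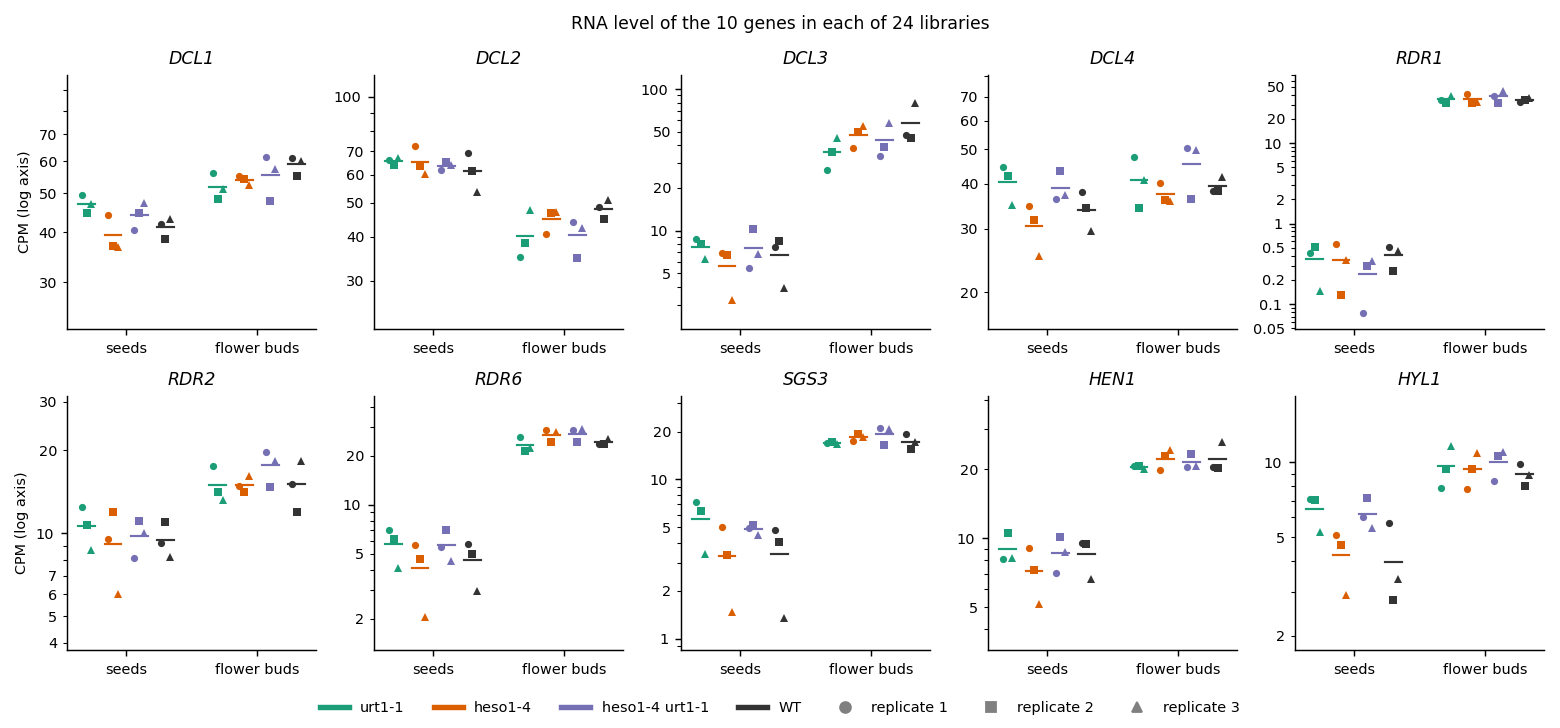
CPM (log axis, a range of its own for each gene) of the 10 genes in each library, with seeds on the left and flower buds on the right of each panel. Colours mark the genotype, symbols the replicate number and short lines the group mean. RDR1 lies under 1 CPM in every seed library and over 30 CPM in every flower library, while DCL4 overlaps between the tissues.

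Dry seeds and flower buds differed in which of these genes they held. In WT, 8 of the 10 genes were lower in seeds than in flowers and 1, DCL2, was higher (with plain library totals lower, −0.46), by the quasi-likelihood test of edgeR, adjusted over all genes by Benjamini-Hochberg. That share is no more than usual here, since 80.6% of the 23557 genes tested passed in WT, 32.9% higher and 47.7% lower. What sets the genes apart from one another is the size of the change. The median log2 fold change was −1.28 over the 10 genes and −0.56 over all genes tested in WT. Seeds hold a few storage protein RNAs at very high counts, and their part in the scaling was not tested. The choice of scaling matters: with plain library totals the all-gene median was −1.38 in WT. Of the genes called, 76.8% were then lower, beside 59.2% on the TMM scale. With plain totals all 10 genes were called lower in WT seeds, where 61.0% of all genes were. Changes are therefore also set against the all-gene median of the same scale. Less RNA per cell and fewer cells of a type cannot be told apart in such whole-tissue samples.

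**Figure D2:**
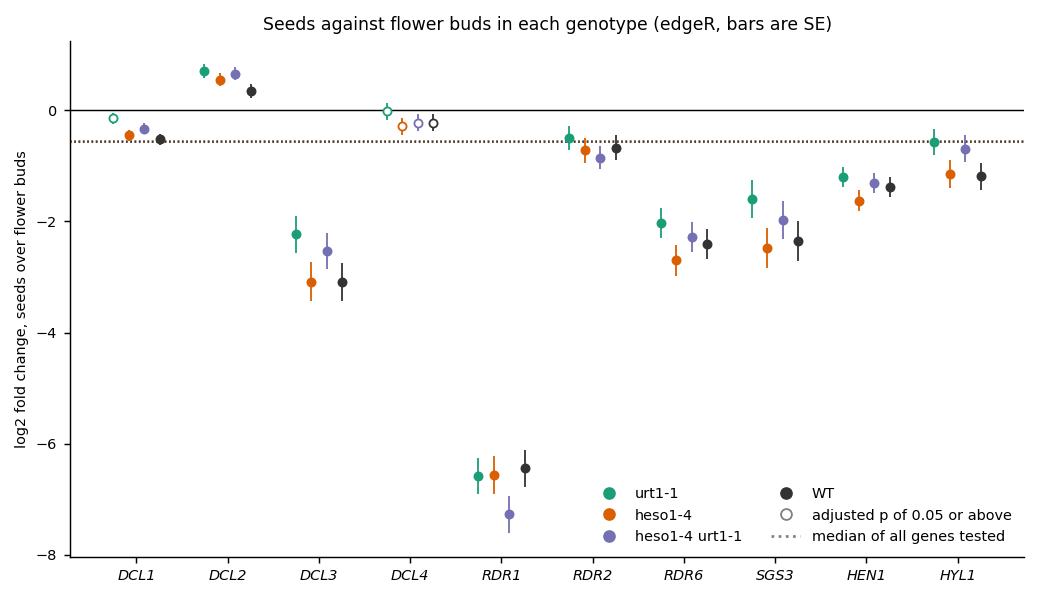
Log2 fold change of seeds over flower buds for each gene in each genotype, with SE bars; filled points have an adjusted p under 0.05 and dotted lines mark the median of all genes tested. RDR1 lies furthest below 0, near −6.44 in WT, and DCL2 is the only gene above 0 in each genotype on this TMM scale; with plain library totals it falls below 0 in all 4.

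Among the Dicers, DCL2 and DCL3 moved apart. DCL3, which makes the small RNAs of DNA methylation, was at 7.63, 8.49 and 3.95 CPM in WT seeds, against 47.6, 44.7 and 79.1 CPM in WT flowers. All 12 seed libraries, at 3.21 to 10.2 CPM, lay below all 12 flower libraries. Its log2 fold change in WT was −3.09 ± 0.34 (SE, n = 3 each, edgeR adjusted p = 7.2e-08), which is 2.53 below the all-gene median; it was −2.23 in urt1-1, −3.08 in heso1-4 and −2.53 in heso1-4 urt1-1, and each passed the test.
DCL2, which cuts viral and other exogenous double-stranded RNA, was at 69.4, 61.6 and 53.5 CPM in WT seeds, against 48.5, 44.8 and 50.9 CPM in WT flowers. Over all genotypes the seed libraries, at 53.5 CPM and above, did not overlap with the flower libraries. The log2 fold change in WT was 0.35 ± 0.12 (edgeR adjusted p = 0.010), lost without WT seed replicate 1 (adjusted p = 0.096), and it was 0.71 in urt1-1, 0.55 in heso1-4 and 0.66 in heso1-4 urt1-1. This direction holds on the TMM scale only: with plain library totals the values were −0.46 in WT, −0.03 in urt1-1, −0.38 in heso1-4 and −0.14 in heso1-4 urt1-1. Relative to the all-gene median, DCL2 stood 0.91 higher in WT seeds on the TMM scale and 0.92 higher with plain totals. AT3G03305, a gene on the same strand, shares 847 bases with DCL2, and reads there count for both; it was lower in WT seeds (−0.38 ± 0.17, edgeR adjusted p = 0.047), while its changes of 0.15 in urt1-1, 0.00 in heso1-4 and 0.21 in heso1-4 urt1-1 did not pass the test.

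DCL1, the microRNA Dicer, was at 42.0, 38.5 and 43.1 CPM in WT seeds, against 61.3, 55.2 and 60.1 CPM in WT flowers. The WT groups did not overlap, and the change of −0.52 ± 0.10 (edgeR adjusted p = 1.1e-04) lay 0.04 above the all-gene median. In urt1-1 the DCL1 change was −0.14 ± 0.10 (edgeR adjusted p = 0.20), which passed the test with DESeq2 (adjusted p = 0.012), with RLE size factors in edgeR (0.019) and with plain library totals (−0.88, adjusted p = 1.3e-04). In heso1-4 urt1-1 it was −0.33 ± 0.10 (edgeR adjusted p = 0.0054), not past the threshold without heso1-4 urt1-1 seed replicate 1 (adjusted p = 0.072). The call was also lost with only the seed and flower libraries of that genotype in the edgeR fit (adjusted p = 0.067). The span of MIR838 inside the DCL1 intron held at most 0.705 CPM in seeds and 1.04 CPM in flowers; reads of the miRNA precursor and of unspliced DCL1 RNA cannot be told apart there.
DCL4, the Dicer of trans-acting small RNAs, was at 38.0, 34.3 and 29.5 CPM in WT seeds, against 38.3, 38.1 and 41.8 CPM in WT flowers. The highest WT seed value lay just under the lowest WT flower value, and over all genotypes the tissues overlapped. The change was −0.22 ± 0.15 in WT (edgeR adjusted p = 0.18) and −0.02 to −0.29 in the mutants, none past the threshold. With plain library totals edgeR called DCL4 lower in seeds in all 4 genotypes, by −1.03 in WT (adjusted p = 4.8e-04), −0.74 in urt1-1 (0.0065), −1.22 in heso1-4 (8.6e-05) and −1.02 in heso1-4 urt1-1 (4.9e-04). DESeq2 called DCL4 lower in WT (adjusted p = 0.049), in heso1-4 (0.014) and in heso1-4 urt1-1 (0.026), as did edgeR with RLE size factors (0.049, 0.016 and 0.028). With TMM, edgeR called it in heso1-4 without heso1-4 seed replicate 1 (0.025) or WT seed replicate 3 (0.048), and in heso1-4 urt1-1 without its flower replicate 2 (0.033). Relative to the all-gene median DCL4 was 0.34 higher in WT seeds with TMM and 0.35 higher with plain totals.

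Set against one another per kb of gene, the 4 Dicers changed their balance. This share needs no scaling between libraries. DCL2 made up 40.5% to 49.3% of the summed Dicer CPM per kb in seed libraries (median 44.3%), against 20.5% to 25.8% in flower libraries. DCL3 made up 2.92% to 7.16% in seeds (median 5.29%), against 18.4% to 37.5% in flowers (median 27.3%). Neither range overlapped. DCL1 at medians of 29.9% in seeds and 31.1% in flowers, and DCL4 at 20.3% and 18.2%, overlapped between the tissues. With exon length in place of the gene's span the medians were 45.5% in seeds and 25.2% in flowers for DCL2, and 5.18% in seeds and 27.1% in flowers for DCL3.

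**Figure D3:**
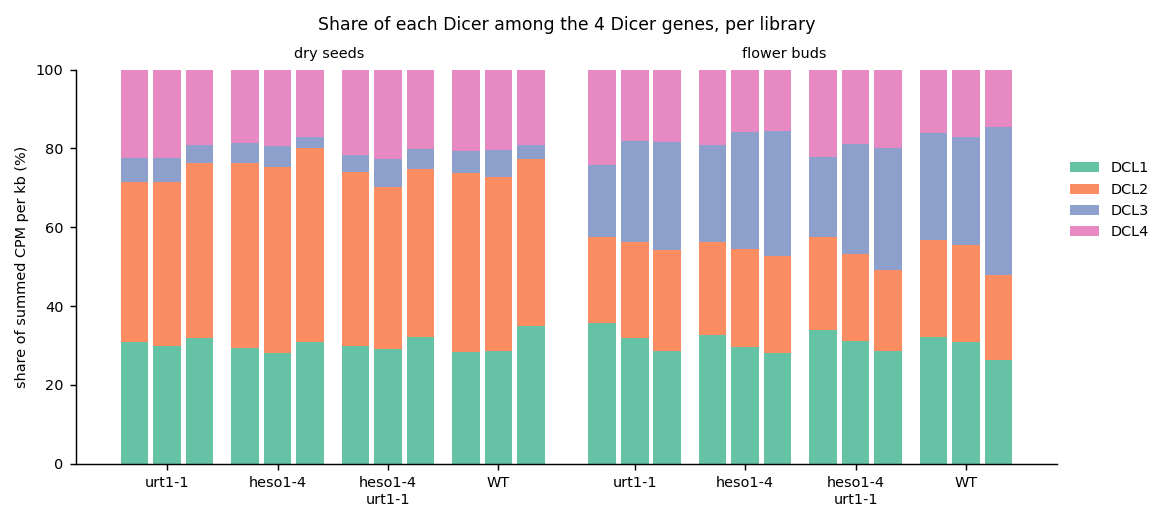
Share of each Dicer gene in the summed CPM per kb of the 4 Dicers (percent), 1 bar per library, seeds on the left and flower buds on the right. The DCL2 share is 40.5% or more in every seed library and 25.8% or less in every flower library, and includes reads shared with AT3G03305. The DCL3 share is 7.16% or less in seeds and 18.4% or more in flowers.

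RDR1, a polymerase induced by viruses and salicylic acid, showed the widest change of the 10 genes. It was at 0.513, 0.259 and 0.452 CPM in WT seeds, against 32.3, 34.7 and 36.2 CPM in WT flowers. These seed values rest on 8, 6 and 8 counts, and no seed library of any genotype held more than 16. The log2 fold change was −6.44 ± 0.33 in WT (edgeR adjusted p = 4.9e-13), and −6.58 in urt1-1, −6.56 in heso1-4 and −7.27 in heso1-4 urt1-1. AT1G14780, on the other strand, overlaps the end of RDR1 by 192 bases, and the counting used strand.
RDR6, the polymerase of trans-acting and secondary small RNAs, was at 5.77, 4.96 and 2.94 CPM in WT seeds, against 23.7, 23.7 and 25.4 CPM in WT flowers. The groups lay far apart, and the change was −2.41 ± 0.27 in WT (edgeR adjusted p = 8.4e-08) and −2.02 to −2.70 in the mutants.
RDR2, the polymerase that works with RNA polymerase IV, was at 9.17, 11.0 and 8.19 CPM in WT seeds, against 15.1, 11.9 and 18.3 CPM in WT flowers. The WT groups did not overlap, but the highest seed library of all, at 12.4 CPM, lay above the lowest flower library at 11.9 CPM. The change was −0.67 ± 0.22 in WT (edgeR adjusted p = 0.0074), 0.11 below the all-gene median, and −0.50 ± 0.21 in urt1-1 (edgeR adjusted p = 0.037). In urt1-1 it missed the threshold without flower replicate 1 (0.15), seed replicate 2 (0.077) or seed replicate 3 (0.17) of urt1-1, or without seed replicate 1 of WT or seed replicate 3 of heso1-4 urt1-1 (0.050 each).
Among these 3 polymerases, RDR1 made up 0.577% to 4.16% of the summed CPM per kb in seeds and 43.6% to 53.3% in flowers. RDR2 made up 61.9% to 73.6% in seeds (median 67.3%), and at least 17.8% in flowers, where all 12 libraries lay below the seed range. The RDR6 share, at medians of 31.0% in seeds and 31.2% in flowers, overlapped between the tissues.

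SGS3, which stabilises RNA for RDR6, was at 4.81, 4.05 and 1.35 CPM in WT seeds, against 19.2, 15.6 and 17.2 CPM in WT flowers, with no overlap. The change was −2.35 ± 0.36 in WT (edgeR adjusted p = 4.4e-06), against −1.59 in urt1-1, −2.48 in heso1-4 and −1.98 in heso1-4 urt1-1.
HEN1, the methyltransferase, was at 9.55, 9.40 and 6.66 CPM in WT seeds, against 20.4, 20.3 and 26.1 CPM in WT flowers. All 12 seed libraries lay below all 12 flower libraries, and the change was −1.38 ± 0.18 in WT (edgeR adjusted p = 8.5e-07) and −1.20 to −1.63 in the mutants.
HYL1, the double-stranded RNA binding partner of DCL1, was at 5.71, 2.80 and 3.39 CPM in WT seeds, against 9.88, 8.03 and 8.93 CPM in WT flowers. The change was −1.19 ± 0.25 in WT (edgeR adjusted p = 2.0e-04), −0.57 ± 0.24 in urt1-1 (adjusted p = 0.033) and −0.69 ± 0.24 in heso1-4 urt1-1 (adjusted p = 0.012). The urt1-1 call was lost without urt1-1 flower replicate 2 (0.053), flower replicate 3 (0.15) or seed replicate 3 (0.15). It was also lost with only the urt1-1 seed and flower libraries in the fit (0.052). The heso1-4 urt1-1 call was lost without its seed replicate 1 (0.051) or 3 (0.067). The end of HYL1 shares 36 bases with the start of AT1G09690 on the same strand, and reads there count for both genes; AT1G09690 was at 59.4, 51.7 and 48.9 CPM in WT seeds, against 159, 134 and 178 CPM in WT flowers.

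In the mutants, 8 of the 10 genes passed in urt1-1, where 81.3% of all genes did, 9 in heso1-4 against 80.3%, and 9 in heso1-4 urt1-1 against 81.4%. DCL2 was the 1 higher gene each time on the TMM scale, and in no genotype with plain library totals. Whether the seed to flower change differed from WT was tested directly, as the difference of the mutant's effect between the tissues. edgeR called 0 of the 10 genes in each of these 3 tests, beside 0% of all genes for urt1-1 and 0.00425% for either genotype with heso1-4; DESeq2 also called 0 of the 10. At an unadjusted p under 0.05 there were 2 for urt1-1, DCL1 (0.37 ± 0.14, adjusted p = 0.88) and DCL2 (0.35 ± 0.17, adjusted p = 0.88), beside 5.48% of all genes, and 0 for the other 2 genotypes. With the replicate number of each tissue added to the fit, there were 5 for urt1-1, beside 10.4% of all genes. For heso1-4 there were then 0 beside 7.08%, and for heso1-4 urt1-1 1 beside 10.3%. After adjustment that fit also called 0 of the 10 in each.

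By levels per kb of the gene's span, 3 genes stood apart from their neighbours in seeds and none did in flowers. In seeds DCL2 was highest with a median over 12 libraries of 7.69 CPM per kb (6.42 to 8.69), then DCL1 with 5.38 (4.52 to 6.10), and these ranges did not overlap with each other or with the next. DCL4 at 3.53, RDR2 at 2.34, HYL1 at 1.98, HEN1 at 1.63, SGS3 at 1.44, RDR6 at 1.11 and DCL3 at 0.923 CPM per kb followed, each overlapping its neighbour, and in WT alone HEN1 at 1.81 stood before HYL1 at 1.25. RDR1 was lowest at 0.0805 CPM per kb (0.0181 to 0.131), apart from all others. In flowers RDR1 was highest at 8.04 CPM per kb, then DCL1 at 6.80, DCL3 at 6.02, SGS3 at 5.37, DCL2 at 5.34, RDR6 at 5.28, HEN1 at 3.98, DCL4 at 3.89, RDR2 at 3.57 and HYL1 at 3.49, and every neighbouring pair overlapped. By exon length DCL3, at 8.92 CPM per kb, was first in flowers, and in seeds DCL1 and DCL4 overlapped. The DCL2 levels include reads in the 847 bases shared with AT3G03305, and their part in its rank was not tested.

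Of 45 other genes of the small RNA pathways, 44 were tested between the tissues in WT. In seeds 17 were higher and 22 lower, beside 32.9% and 47.7% of all genes. The median change was −0.41, beside −0.56 for all genes. With plain library totals 7 were higher and 28 lower, beside 4332 higher and 14370 lower of all 23557 genes. The largest rise among those with the smallest adjusted p was that of AT2G19930 (RDR5), another RNA-dependent RNA polymerase gene. It was at 224, 227 and 247 CPM in WT seeds, against 4.32, 2.21 and 3.82 CPM in WT flowers. Its change, 6.07 ± 0.20 (edgeR adjusted p = 1.2e-15), was opposite in sign to that of RDR1, RDR2 and RDR6. RDR3 and RDR4, named after their values were seen, went opposite ways. Over the 12 libraries of a tissue, RDR3 had a median of 4.85 CPM in seeds and 20.1 CPM in flowers. For RDR4 the medians were 19.8 CPM in seeds and 4.09 CPM in flowers. STA1, a splicing factor that also acts in microRNA processing, changed by 1.83 ± 0.14 (adjusted p = 1.3e-10), and RTL2, an RNase III-like protein, by 2.36 ± 0.20 (adjusted p = 9.3e-10). SDN1, an exonuclease that degrades small RNAs, changed by −5.05 ± 0.39 (edgeR adjusted p = 2.2e-10), at 0.385, 0.431 and 0.113 CPM in WT seeds, against 10.3, 11.3 and 10.2 CPM in WT flowers.

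Each mutant was compared with WT within each tissue, which asks whether the insertions in URT1 and HESO1 change the RNA of the small RNA machinery. In seeds none of the 10 genes passed edgeR's test in urt1-1, in heso1-4 or in heso1-4 urt1-1, where 0.0279%, 0.0111% and 0.0557% of 17939 genes did. At an unadjusted p under 0.05 there were 1, 0 and 1 of the 10 genes, HYL1 both times, beside 6.90%, 3.76% and 8.62% of all genes, and DESeq2 called 0 in each. With the replicate number as a block shared by all seed libraries, 0.502% of all genes and again 0 of the 10 were called in urt1-1. An unadjusted p under 0.05 was then held by 3, 0 and 2 of the 10 genes in these mutants. The shares of all genes were 12.3%, 6.13% and 14.1%. In flowers none passed in urt1-1, heso1-4 or heso1-4 urt1-1, beside 0.00876%, 0.00876% and 0.0131% of 22841 genes. There 1, 0 and 0 of the 10 had an unadjusted p under 0.05, beside 2.60%, 2.73% and 2.83% of all genes, and DESeq2 again called 0. With the block 2, 0 and 1 did, beside 6.82%, 7.72% and 7.68% of all genes, and 0 of the 10 were called. With so few genes called at all, the counts of genes called stay at the background, and the SEs set what could have been seen.

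**Figure D4:**
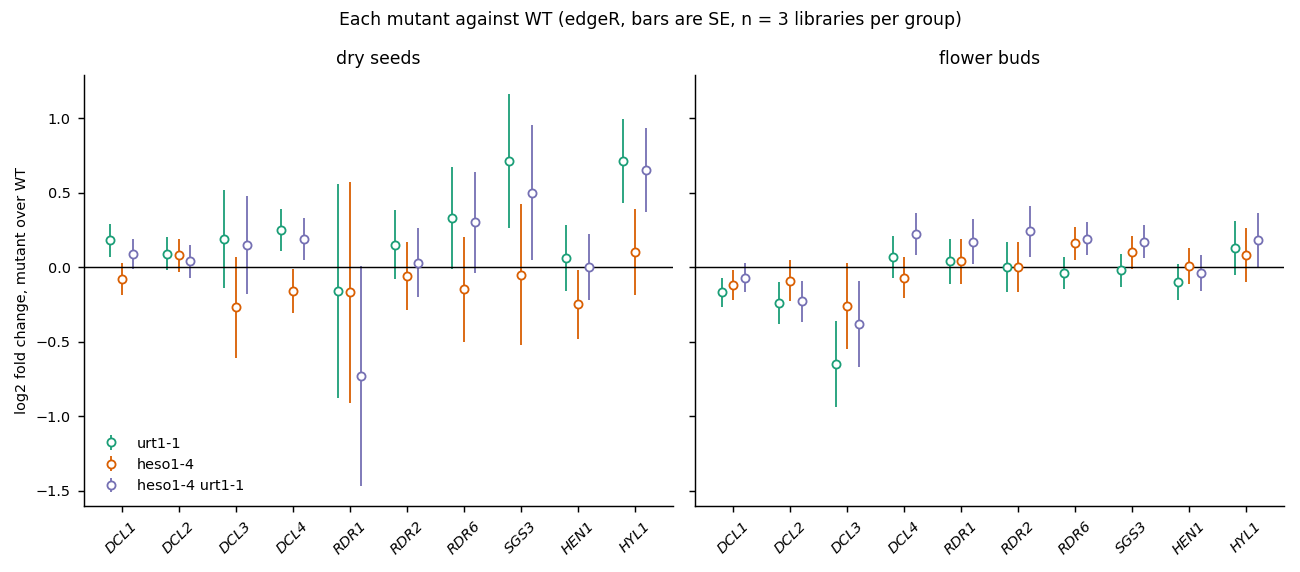
Log2 fold change of each mutant over WT for the 10 genes with SE bars, in dry seeds (left) and flower buds (right), n = 3 libraries per group. No point has an adjusted p under 0.05; the widest bars are those of RDR1 in seeds, with an SE of 0.72 to 0.74.

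In urt1-1 seeds the changes of the 9 genes other than RDR1 lay between 0.06 (HEN1) and 0.71 (HYL1 and SGS3). RDR1, with few counts in seeds, changed by −0.16 ± 0.72. HYL1 was at 7.12, 7.07 and 5.24 CPM in urt1-1 seeds, against 5.71, 2.80 and 3.39 CPM in WT seeds, which overlap. Its change was 0.71 ± 0.28 (edgeR adjusted p = 0.65). DCL1 changed by 0.18 ± 0.11 and DCL2 by 0.09 ± 0.11, so the Dicers with the deepest counts had the smallest errors.
In seeds labelled heso1-4 the changes of the same 9 genes lay between −0.27 (DCL3) and 0.10 (HYL1). In seeds labelled heso1-4 urt1-1 they lay between 0.00 (HEN1) and 0.65 (HYL1). HYL1 was at 6.03, 7.16 and 5.46 CPM there, a change of 0.65 ± 0.28 from WT (edgeR adjusted p = 0.55). RDR1 changed by −0.17 ± 0.74 in seeds labelled heso1-4 and by −0.73 ± 0.74 in those labelled heso1-4 urt1-1.
HEN1, whose product protects small RNAs from HESO1, changed by −0.25 ± 0.23 in seeds labelled heso1-4 and by 0.01 ± 0.12 in flowers with that label. It was at 9.08, 7.28 and 5.19 CPM in those seeds and at 19.8, 22.7 and 24.2 CPM in those flowers, and both groups overlap with the WT values above.

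When the 6 seed libraries with urt1-1 were set against the 6 without it, no member passed edgeR's test without regard to replicate number. Of 17939 genes 46 passed, or 0.256%, and 3 of the 10 had an unadjusted p under 0.05, beside 15.6% of all genes. By the pairing rule given under processing, the replicate numbers pair the seed libraries of urt1-1 with WT, and of heso1-4 urt1-1 with heso1-4. The block, however, gives each replicate number 1 effect shared by all 4 genotypes. By the same rule, WT seeds did not pair with heso1-4 or heso1-4 urt1-1 seeds. Nor did urt1-1 seeds pair with heso1-4 seeds. With the replicate number as a block, DCL4, HYL1 and SGS3 passed, all higher with urt1-1, against 6.29% of all genes, and 3.76% in that direction.
DCL4 was at 35.0 to 44.5 CPM (median 39.6) with urt1-1, against 25.2 to 38.0 CPM (median 33.0) without. It was higher with urt1-1 in 6 of 6 same-numbered pairs, although the groups overlap. The change was 0.30 ± 0.07 with the block (edgeR adjusted p = 0.023) and 0.30 ± 0.10 without it (0.19).
HYL1 was at 5.24 to 7.16 CPM (median 6.55) with urt1-1, against 2.80 to 5.71 CPM (median 4.02) without, and was higher in 6 of 6 pairs. The change was 0.66 ± 0.16 with the block (edgeR adjusted p = 0.023) and 0.63 ± 0.20 without it (0.15). AT1G09690, which shares bases with HYL1, moved the same way: it was at 67.8 to 94.3 CPM with urt1-1, against 48.9 to 64.2 CPM without, with no overlap. Its change was 0.50 ± 0.06 with the block (edgeR adjusted p = 2.0e-04) and 0.50 ± 0.10 without (0.052), and its part in the HYL1 counts was not tested.
SGS3 was at 3.42 to 7.17 CPM (median 5.07) with urt1-1, against 1.35 to 5.03 CPM (median 3.70) without, and was higher in 5 of 6 pairs. The change was 0.74 ± 0.20 with the block (edgeR adjusted p = 0.036) and 0.63 ± 0.32 without it (0.36).
These calls rest on few libraries. With the block and 1 seed library left out at a time, between 0 and 6 of the 10 genes passed, beside 2.49% to 8.10% of all genes. The count of 6 came without heso1-4 urt1-1 replicate 1, where DCL1, DCL3 and RDR6 passed too and the share of all genes was the 8.10%. The count was 0 in 5 of the 12 fits, where 2.49% to 3.82% of all genes passed. The share of counts on plastid genes was 5.49% to 6.87% with urt1-1, against 6.92% to 9.38% without, with no overlap. Library totals also differed, at 24351440 to 38853305 with urt1-1 and 19304121 to 32245131 without. The part of either in the result was not tested. Of the 44 other pathway genes tested, 3 passed with the block, all higher with urt1-1, beside 6.29% of all genes, and 3.76% in that direction. SDE3, an RNA helicase of the RDR6 pathway, changed by 0.60 ± 0.11 (edgeR adjusted p = 0.0041). NRPD2, a subunit of RNA polymerases IV and V, changed by 0.56 ± 0.09 (edgeR adjusted p = 0.0027). SDN3, a small RNA nuclease, changed by 0.31 ± 0.09 (edgeR adjusted p = 0.045).

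**Figure D5:**
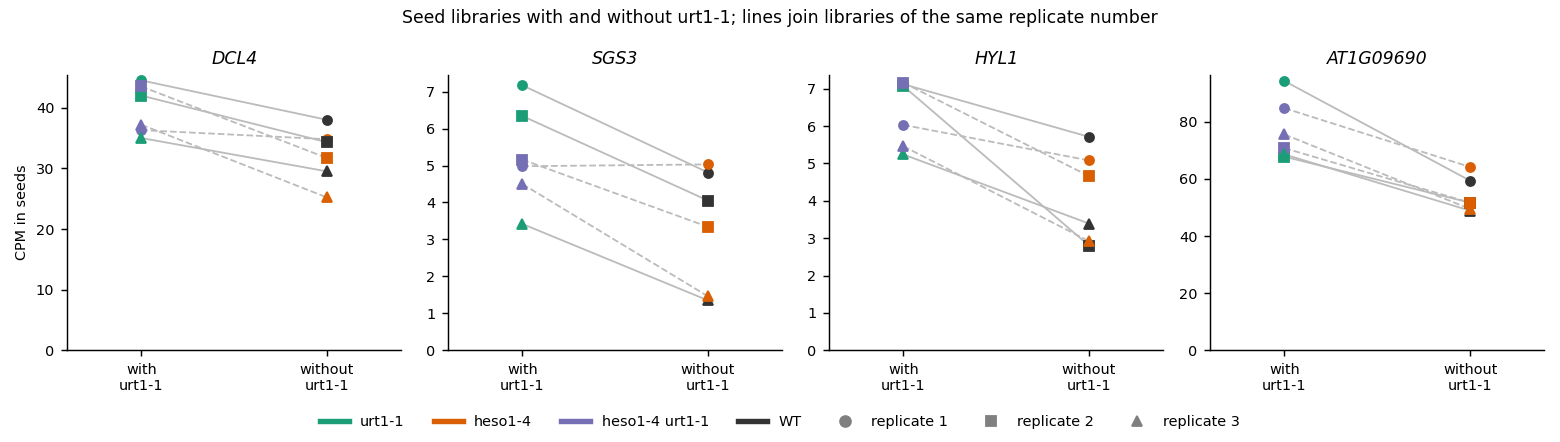
CPM in seed libraries with urt1-1 (left of each panel) and without it (right) for DCL4, SGS3, HYL1 and AT1G09690, from 0. Lines join same-numbered libraries, solid for urt1-1 with WT and dashed for heso1-4 urt1-1 with heso1-4; all 6 lines are higher on the left for DCL4, HYL1 and AT1G09690, and 5 of 6 for SGS3.

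The comparison of seeds with heso1-4 against seeds without it called 0 of the 10 genes beside 0.0167% of all genes, by edgeR and by DESeq2, and 0 had an unadjusted p under 0.05. In flowers the libraries with urt1-1 set against those without called 0 of the 10 beside 0.0175% of all genes, with 0 at an unadjusted p under 0.05 and 0 by DESeq2. Those with heso1-4 against those without called 0 beside 0.0131% and 0 by DESeq2, with RDR6 alone at an unadjusted p under 0.05 (0.20 ± 0.08, edgeR adjusted p = 1.0), beside 502 of all 22841 genes. The numbers pair these flower libraries too: RDR6 was higher with heso1-4 in 6 of 6 same-numbered pairs, and with the block its change was 0.20 ± 0.06 (edgeR adjusted p = 0.41). In flowers with against without urt1-1, the block put 3 of the 10 at an unadjusted p under 0.05, beside 9.17% of all genes. With against without heso1-4 it put 1 there, beside 7.25%. It called 0 of the 10 in either flower comparison.
DCL3 had the lowest change of the 10 genes in all 3 flower comparisons with WT. It was at 26.6, 36.0 and 45.3 CPM in urt1-1 flowers, against 47.6, 44.7 and 79.1 CPM in WT flowers. WT replicate 3 stood far above the other 2, the lowest WT value lay just under the highest urt1-1 value, and the change was −0.65 ± 0.29 (edgeR adjusted p = 1.0). DCL3 was lower in urt1-1 than in WT in 3 of 3 same-numbered pairs, and with the block the change was −0.64 ± 0.12 (edgeR adjusted p = 0.52). A9, a gene of the tapetum, the nurse tissue of pollen, was at 7.37, 30.6 and 36.7 CPM in urt1-1 flowers, against 25.8, 20.8 and 73.7 CPM in WT flowers, and its part in the DCL3 values was not tested.

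DCL3 in flowers differed by replicate number in every genotype. Replicate 3 was highest in 4 of 4 genotypes, at 45.3 to 79.1 CPM, against 26.6 to 47.6 CPM in replicate 1. The summed level of 2 mature pollen genes, VGD1 and AT5G45880, ran the other way, at 297 to 370 CPM in replicate 3 and 594 to 1043 CPM in replicate 1. The 3 tapetum genes AMS, TDF1 and A9 ran with DCL3, summing to 68.5 to 150 CPM in replicate 3 and 21.7 to 71.3 CPM in replicate 1. Of these, A9 was highest in replicate 3 in 3 of 4 genotypes and lowest in replicate 1 in 3 of 4, while AMS was highest in replicate 3 in 2 of 4 and lowest in replicate 1 in 3 of 4. TDF1 stayed under 1 CPM in every flower library. The part of either set in the DCL3 values was not tested. In seeds, replicate 3 was lowest in 4 of 4 genotypes for RDR6 and SGS3, and in 3 of 4 for DCL3, DCL4, RDR2 and HYL1.

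Over all 24 libraries, the genes most like RDR1 in log2 CPM were AT4G39900 (r = 0.993), AT2G28620 (r = 0.992) and ROPGEF14 (r = 0.992), all low in seeds. Those most like DCL1 were AT3G62360 (r = 0.935), PIP5K4 (r = 0.925) and AT3G11130 (r = 0.923). These correlations are descriptions over n = 24 libraries that share the tissue difference.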

How the data were processed

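The authors deposited 1 table of raw read counts per gene for each tissue, with 12 libraries each. Per the labels, 500 ng of DNase-treated RNA was depleted of ribosomal RNA and made into stranded libraries read for 50 bases from each end. Reads were counted, per the file headers with featureCounts 2.0.6, over each gene's full extent, with introns, for the reverse strand, and a read in several genes counts for each. The submitters' processing notes name HISAT2 2.2.1 and TAIR10. Replicates 1 to 3 and groups were taken from the labels.

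The counts were tested with edgeR 4.0.16 (filterByExpr with a minimum count of 10, TMM, robust quasi-likelihood, Benjamini-Hochberg adjustment over all genes, threshold 0.05): 12 libraries per tissue for genotypes, 24 for tissues and for differences between them. SE is the log2 fold change over the root of F. CPM is on the TMM scale of all 24 libraries. The tests of urt1-1 against WT in each tissue and of seeds against flowers in WT were tried on simulated data first. Alternatives were DESeq2 1.42.0, other scalings and filters, halved counts (low counts were mostly even, so both reads of a pair may have been counted), other sets of libraries, the replicate block and each library left out. The members and lists were chosen with earlier results of these data known. Named beside them are URT1, HESO1, genes overlapping a member, up to 4 pathway genes past the test per comparison by smallest adjusted p, and the 3 genes most like DCL1 and like the member with the widest range, RDR1. Of 33243 gene IDs, 33055 had the same start and end in the RefSeq annotation of TAIR10.1.

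Numbers were taken to pair libraries where all 3 same-numbered pairs of 2 groups correlated over 0.1 in their deviations from the group means. Libraries with different numbers were not compared. In seeds the rule held for urt1-1 with WT (0.40, 0.20 and 0.51). It also held for heso1-4 urt1-1 with heso1-4 (0.12, 0.16 and 0.18) and with urt1-1 (0.11, 0.21 and 0.19). It did not hold for WT with heso1-4 (0.09, 0.17 and 0.12) or with heso1-4 urt1-1 (0.07, 0.17 and 0.10). Nor did it for urt1-1 with heso1-4 (0.07, 0.15 and 0.24). Several of these values lie close to the threshold, so it separates similar pairs. In flowers the rule held for 5 of 6, such as urt1-1 with WT (0.60, 0.13 and 0.44) and heso1-4 with WT (0.55, 0.22 and 0.45). It did not hold for heso1-4 urt1-1 with WT (0.51, 0.06 and 0.33). It did not hold between tissues.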

Additional observations from a re-analysis of the deposited data

How the results depend on the processing

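Leaving aside what was added later, of 404 recomputed counts of members called under other normalizations, filters, tests and sets of libraries, 403 stayed within 1.5 times the reported count (between tissues, 6 to 10 of 10 with a library left out, beside 8 or 9); the exception was the replicate block in seeds with against without urt1-1 (3, beside 0). Combinations of the block with another choice were added after seeing the data: it gave 3 with DESeq2 and 0 to 6 with 1 library left out: 3 without heso1-4 replicate 1, 1 without its replicate 2, 2 without its replicate 3, 6 without heso1-4 urt1-1 replicate 1, 2 without urt1-1 replicate 3, 2 without WT replicate 1 and 1 without WT replicate 3. The block changed no other count of members, and with 1 library left out and no block the count for seeds with against without urt1-1 stayed at 0. Plain library totals, also added later, reversed DCL2 between tissues (−0.46 in WT, −0.03 in urt1-1, −0.38 in heso1-4, −0.14 in heso1-4 urt1-1; the cause is the scaling, which moved the all-gene median in WT by −0.82) and made the WT split of all calls 76.8% lower beside 59.2%. The same scaling made DCL4 pass as lower in all 4 genotypes (−0.74 to −1.22) and DCL1 in urt1-1 (−0.88, beside −0.14), so that 10 of 10 genes were lower in WT, beside 8 lower and 1 higher. Counts over all genes moved more. With against without urt1-1 in seeds gave 468 with DESeq2, 1128 with the block and 11 to 161 with a library left out, beside 46. For urt1-1 in seeds it was 15 with DESeq2 and 90 with the block, beside 5; for heso1-4 urt1-1 in seeds 68 and 206, beside 10. In flowers DESeq2 called 6 in urt1-1 beside 2, 8 in heso1-4 beside 2, 13 in heso1-4 urt1-1 beside 3, and 44 with against without urt1-1 beside 4. With against without heso1-4, it called 5 in seeds and 5 in flowers, beside 3 each, and the block 7 in flowers. The difference of effects between tissues gave 6 with DESeq2 for urt1-1, beside 0, and 13 with DESeq2 and 14 with the block for heso1-4 urt1-1, beside 1. With only the 2 groups in the fit, 3 genes were called for urt1-1 in seeds, and 1 for heso1-4 and 1 for heso1-4 urt1-1 in flowers. Of 4033 member values recomputed without the combinations and the scaling added later, 4005 kept the call. The call was lost in 14 and gained in 14, and 0 reversed. With them 4176 of 4233 kept the call, with 14 lost, 39 gained and 4 reversed, the 4 being DCL2 above. Reversed means a change of sign where the reported or the recomputed value was called. Values called in neither fit count as kept even where the sign changed, such as DCL3 in urt1-1 seeds (0.19, range −0.08 to 0.40). Depth limits RDR1 in seeds, where 2 to 16 counts per library carry it.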
